A study of Mus musculus with 16 samples.

Results

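The interferon regulatory factors (IRFs) measured here are Irf1, Irf2, Irf3, Irf5, Irf7, Irf8 and Irf9. They were chosen by symbol, and all 7 are among the 16707 genes of the deposited log2 CPM table (log2 of reads scaled to a common library size). RNA was sequenced from primary mouse astrocytes of 4 WT (C57/BL6J) and 4 Nlrx1-/- litters. Each litter gave one well with vehicle (water) and one well with 500 ng/mL lipopolysaccharide (LPS) and 10 ng/mL interferon gamma (IFNγ) for 24 h, so there are 16 libraries, 4 per condition. The question of the design is how the loss of NLRX1, a regulatory NOD-like receptor of the mitochondrion, changes the astrocyte response to LPS + IFNγ. All cultures came from whole brains of pups labelled as 6 days old, were selected with anti-ACSA-2 beads, and were kept in serum-free medium with HB-EGF. Each litter had 1 genotype, so genotypes were compared across litters, in a fit that took both wells of a litter as separate libraries. In bulk RNA, fewer cells of a type and less RNA per cell cannot be told apart.

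IRFs are transcription factors that share an N-terminal DNA-binding domain and bind interferon-stimulated response elements. IFNγ signals through JAK kinases to STAT proteins, which bind gamma-activated sites (GAS) and switch on Irf1 and Irf8, while type I interferon leads to the complex ISGF3, of which IRF9 is a subunit and which drives antiviral genes and Irf7. LPS engages TLR4, whose adaptors lead to NF-κB and, through kinases, to activation of the IRF3, IRF5 and IRF7 proteins, which RNA levels do not show. IRF8 is best known as a lineage factor of microglia and other myeloid cells.

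The targeted gene was read first. Nlrx1 lay between 4.08 and 4.44 log2 CPM in the 8 WT libraries and between 1.09 and 2.96 in the 8 knockout libraries, without overlap. Libraries held 27259420 to 43752903 read pairs assigned to transcripts. All 10 astrocyte markers passed the authors' expression filter, with a summed level of 6870 to 10800 CPM in WT vehicle, 6320 to 9450 in WT LPS + IFNγ, 5390 to 8420 in knockout vehicle and 5390 to 7260 in knockout LPS + IFNγ. Of 20 microglia and macrophage markers, 3 passed it. Of these, Cd68 had 26 to 36 reads in WT vehicle, 28 to 73 in WT LPS + IFNγ, 28 to 46 in knockout vehicle and 27 to 74 in knockout LPS + IFNγ, and P2ry12 is given beside Irf8. The other 17, which include Aif1, Cx3cr1, Csf1r and Ptprc, held 5 to 117 reads together in a library. Knockout litters 2 and 4 stood apart from the other 6 litters in glial markers. Their 4 libraries had Gfap between 7.37 and 8.61 log2 CPM, against 9.33 to 11.34 in the other 12, and the myelin gene Mbp between 0.69 and 3.0, against 3.55 to 7.84. Other genes of the oligodendrocyte lineage were not low there: in vehicle, Olig1 was at 11.46 and 11.33 in these litters against 10.65 to 11.14 in the others, and Olig2 at 9.54 and 9.42 against 8.56 to 9.55. The knockout responses of Irf5 and Irf7, the genotype differences and the litter correlations between IRFs are given with and without these litters where they move.

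LPS + IFNγ raised 6 of the 7 IRFs in both genotypes, and Irf3 did not pass the test in either. By limma with litter as a block and Benjamini-Hochberg adjustment over 16707 genes, 24.9% of all genes rose and 21.9% fell in WT, and 26.6% rose and 25.5% fell in Nlrx1-/- cultures. The median IRF response was 3.92 log2 units in WT and 4.49 in knockout, beside a median of -0.02 over all genes in both. Both IRF medians are the values of Irf5, the member with the fewest reads. Without knockout litters 2 and 4 the knockout median was 3.21. Irf8 rose most and Irf1 next, followed by Irf7, whose litters overlapped with those of Irf1 in WT, and by Irf5, Irf9 and Irf2. The same order was found in the knockout mean responses. The place of Irf5 was not firm, since its WT litters, 1.40 to 5.29, overlapped with those of Irf7, Irf9 and Irf2. On log2(CPM + 1), Irf5 rose by 1.78 in WT and 1.77 in knockout, less than Irf9 with 2.30 and 2.56. In knockout it was then also below Irf2, with 1.99.

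**Figure D1:**
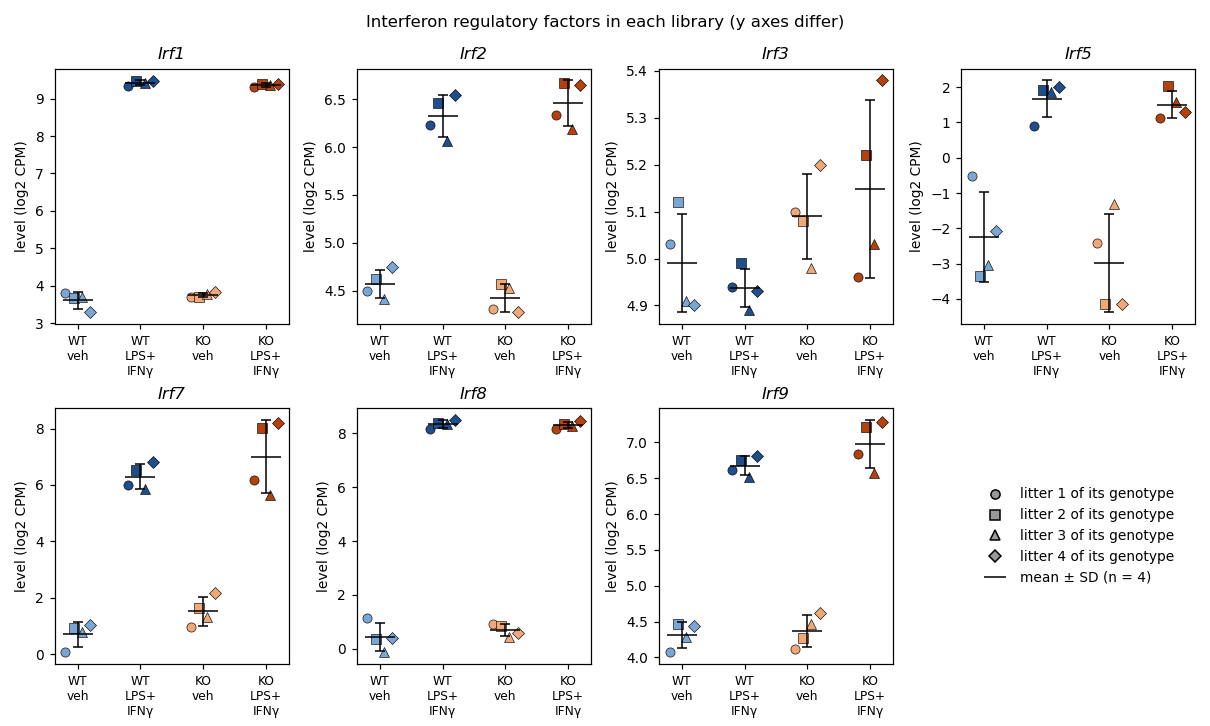
Level of each IRF in log2 CPM (y axis, a different range in each panel) in the 4 conditions (x axis). Each symbol is a library, its shape the litter, and bars give mean ± SD over 4 litters. Irf1, Irf2, Irf5, Irf7, Irf8 and Irf9 separate by treatment without overlap in both genotypes, whereas Irf3 stays between 4.89 and 5.38.

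The sequence before each RefSeq start site was examined because 6 of the 7 genes rose with LPS + IFNγ. Windows of 250 bases before each start in the RefSeq promoter table (GRCm38.p6, 10 windows for the 7 genes) were searched on both strands for the GAS letters TTCNNNGAA, the interferon response letters GAAANNGAAA and the NF-κB letters GGGANNTTCC. The GAS letters occurred in the windows of Irf1, Irf2 and Irf8, and the interferon response letters in that of Irf2. The NF-κB letters occurred in none of the windows. They cover a narrow form, and other forms of the site were not searched. The Irf1 window, for example, holds ggggaatccc within the first exon, which the NF-κB letters cannot match. The absence of a match therefore does not show that a window lacks an NF-κB site. Over all 32851 windows of this length, 7.02% held the GAS letters, 2.98% the interferon response letters and 1.21% the NF-κB letters. The windows of the 3 genes with a match and of Irf7, which responded strongly without one, are shown 5′ to 3′ up to the first exon of a protein-coding gene, with matches in capitals. Each was located in GRCm39 by a single exact match: Irf1 at chr11:53660591-53660811, Irf2 at chr8:47192530-47192749 and Irf8 at chr8:121462847-121463095 on the plus strand, and Irf7 at chr7:140846399-140846587 on the minus strand.
Irf1: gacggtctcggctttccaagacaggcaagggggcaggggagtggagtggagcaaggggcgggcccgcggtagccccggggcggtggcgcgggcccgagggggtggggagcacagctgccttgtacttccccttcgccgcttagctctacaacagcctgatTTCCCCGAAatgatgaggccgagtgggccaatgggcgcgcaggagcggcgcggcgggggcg
Irf2: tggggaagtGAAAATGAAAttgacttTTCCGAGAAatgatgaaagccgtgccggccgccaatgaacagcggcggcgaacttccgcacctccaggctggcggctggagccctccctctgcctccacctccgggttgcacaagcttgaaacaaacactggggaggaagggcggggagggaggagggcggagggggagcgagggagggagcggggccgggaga
Irf8: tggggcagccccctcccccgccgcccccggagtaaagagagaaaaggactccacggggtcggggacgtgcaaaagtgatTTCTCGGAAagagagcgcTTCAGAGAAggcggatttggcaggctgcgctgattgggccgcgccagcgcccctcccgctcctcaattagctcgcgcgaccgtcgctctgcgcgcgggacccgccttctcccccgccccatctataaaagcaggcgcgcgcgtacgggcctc
Irf7: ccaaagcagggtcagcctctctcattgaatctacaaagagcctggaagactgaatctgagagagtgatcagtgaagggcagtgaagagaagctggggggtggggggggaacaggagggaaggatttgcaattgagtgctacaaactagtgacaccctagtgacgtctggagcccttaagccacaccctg
With the RefSeq start site as 0, the match of Irf1 began at position -90, and both matches of Irf8 lay close together, at -171 and -153. In Irf2 the interferon response match at -241 and the GAS match at -224 did not overlap. The windows of Irf3, which did not respond, and of Irf5, Irf7 and Irf9, which did, held none of these letters. RefSeq starts can lie inside the GENCODE gene. All windows of Irf2, Irf5 and Irf9 begin after the first base of that gene, as does a further window of Irf1 and of Irf8. The matches of Irf2 thus lay downstream of that base, and for Irf2, Irf5 and Irf9 the sequence before it was not searched.

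Irf1 (chr11:53660812-53669200, GRCm39) encodes an activator induced by IFNγ that drives antigen presentation genes. WT vehicle libraries of litters 1 to 4 had 3.82, 3.67, 3.69 and 3.29 log2 CPM, and WT LPS + IFNγ libraries 9.34, 9.48, 9.42 and 9.47. Knockout vehicle libraries had 3.70, 3.71, 3.79 and 3.83 and knockout LPS + IFNγ libraries 9.30, 9.40, 9.37 and 9.38. All 8 treated libraries lay within a narrow band, far above every vehicle library. Irf1 rose by 5.81 ± 0.08 log2 units (SE, n = 4 litters) in WT, a 56.2-fold change (limma, adjusted p = 1.08e-13), and by 5.60 ± 0.08 in knockout, 48.6-fold (limma, adjusted p = 1.43e-13). In WT, 99.3% of all genes had a smaller response. Because libraries were not stranded, reads from the antisense transcripts Gm17334 and Gm12216, which cover 31.4% and 13.2% of the exon bases of Irf1, cannot be told apart from its own, although Gm12216 itself averaged -0.75 log2 CPM.

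Irf8 (chr8:121463096-121485659) encodes the partner-dependent factor of the myeloid lineage. WT vehicle libraries had 1.14, 0.35, -0.13 and 0.40 log2 CPM, from 35 to 67 reads each, and WT LPS + IFNγ libraries 8.15, 8.37, 8.35 and 8.49, from 8009 to 13689 reads. Knockout libraries had 0.91, 0.83, 0.44 and 0.60 in vehicle and 8.15, 8.34, 8.28 and 8.46 in LPS + IFNγ. The gene went from a low but detected level to a high level in every litter. It rose by 7.90 ± 0.19 log2 units in WT, 239-fold (limma, adjusted p = 8.99e-12), and by 7.61 ± 0.19 in knockout, 196-fold (limma, adjusted p = 1.41e-11). Of 16707 genes, 50 responded more in WT and 54 in knockout. Litter 1 of WT had the highest vehicle level and the smallest response, 7.01, against 8.02 to 8.48 in the other 3 WT litters. Beside it, the 17 microglia and macrophage markers below the filter reached at most 26 reads in any library (Adgre1), with Siglech at 0 in all 16, and the myeloid factor Spi1 had 0 to 8 reads. The microglial receptor P2ry12 had 3 to 13 reads in WT vehicle and 15 to 24 in WT LPS + IFNγ, and 2 to 16 and 21 to 56 in knockout. The part of other cell types in the Irf8 level was not tested.

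Irf7 (chr7:140842619-140846398) encodes the amplifier of type I interferon production and is itself an ISGF3 target. WT litters had 0.06, 0.94, 0.78 and 1.04 log2 CPM in vehicle and 5.98, 6.53, 5.86 and 6.80 in LPS + IFNγ. Knockout litters had 0.95, 1.62, 1.32 and 2.17 in vehicle and 6.17, 8.01, 5.64 and 8.21 in LPS + IFNγ. The treated knockout libraries fell into 2 high litters (2 and 4) and 2 litters (1 and 3) near the WT libraries. Irf7 rose by 5.58 ± 0.26 log2 units in WT, 47.9-fold (limma, adjusted p = 8.36e-09), and by 5.49 ± 0.26 in knockout, 45.1-fold (limma, adjusted p = 9.36e-09). Without knockout litters 2 and 4 the knockout response was 4.77, or 27.3-fold (limma, adjusted p = 3.03e-09).

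Irf9 (chr14:55841028-55847812) encodes the DNA-binding subunit of ISGF3. In WT, vehicle libraries had 4.07, 4.47, 4.29 and 4.44 log2 CPM and treated libraries 6.61, 6.76, 6.52 and 6.81. In knockout, vehicle libraries had 4.11, 4.27, 4.46 and 4.62 and treated libraries 6.84, 7.21, 6.57 and 7.29, where litters 2 and 4 were again highest. The gene was already expressed in vehicle and rose by 2.36 ± 0.11 log2 units in WT, 5.12-fold (limma, adjusted p = 5.89e-09), and by 2.61 ± 0.11 in knockout, 6.11-fold (limma, adjusted p = 2.15e-09).

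Irf2 (chr8:47192222-47300501) encodes the factor that competes with IRF1 for its sites and is best known as a repressor. WT litters had 4.50, 4.62, 4.41 and 4.75 log2 CPM in vehicle and 6.23, 6.46, 6.06 and 6.54 in LPS + IFNγ. Knockout litters had 4.31, 4.57, 4.53 and 4.28 in vehicle and 6.33, 6.67, 6.19 and 6.65 in LPS + IFNγ. In log2 CPM its mean rise was the smallest of the 6 but the most even between WT litters, 1.66 to 1.85. It amounted to 1.75 ± 0.09 log2 units in WT, 3.37-fold (limma, adjusted p = 2.36e-08), and 2.04 ± 0.09 in knockout, 4.11-fold (limma, adjusted p = 5.41e-09). Its co-repressors moved little. Of the 3 measured, Irf2bp2 rose in WT, by 0.29 (limma, adjusted p = 0.000787), and in knockout, by 0.30 (limma, adjusted p = 0.000533), Irf2bpl rose in knockout, by 0.48 (limma, adjusted p = 0.00856), with 0.07 in WT, and Irf2bp1 passed in neither.

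Irf5 (chr6:29526276-29541870) encodes a mediator of TLR-driven cytokine expression that is abundant in macrophages. It was the rarest of the 7. WT litters had -0.51, -3.35, -3.04 and -2.08 log2 CPM in vehicle, from 2 to 12 reads, and 0.90, 1.93, 1.86 and 2.01 in LPS + IFNγ, from 42 to 104 reads. Knockout litters had -2.41, -4.13, -1.30 and -4.13 in vehicle, where litters 2 and 4 were at the table's floor with 0 reads, and 1.13, 2.02, 1.57 and 1.29 in LPS + IFNγ. Treated libraries were above vehicle libraries throughout, yet the responses of single litters ran from 1.40 to 6.15. Irf5 rose by 3.92 ± 0.65 log2 units in WT (limma, adjusted p = 0.000386) and by 4.49 ± 0.65 in knockout (limma, adjusted p = 0.000114). These sizes depend on the prior count of the log2 scale: on log2(CPM + 1) they were 1.78 and 1.77, both still past the threshold. Without knockout litters 2 and 4, which had 0 reads in vehicle, the knockout response was 3.21 (limma, adjusted p = 0.00382). In treated libraries, between 64.6% and 82.8% of the reads behind the Irf5 value could be traced to transcripts with its symbol, relative to the typical gene. Vehicle libraries were too low for this share. The reads and TPM given for Irf5 count the traced transcripts alone and are thus too low. The unstranded reads of Tnpo3, which shares 5.8% of the exon bases of Irf5 and averaged 6.81 log2 CPM, could not be separated there.

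Irf3 (chr7:44647033-44652272) encodes the factor that TLR4 activates through the adaptor TRIF without new synthesis. WT litters had 5.03, 5.12, 4.91 and 4.90 log2 CPM in vehicle and 4.94, 4.99, 4.89 and 4.93 in LPS + IFNγ. Knockout litters had 5.10, 5.08, 4.98 and 5.20 in vehicle and 4.96, 5.22, 5.03 and 5.38 in LPS + IFNγ. Vehicle and treated libraries overlapped in both genotypes. The difference was -0.05 log2 units in WT (95% interval -0.20 to 0.10, limma, adjusted p = 0.572) and 0.06 in knockout (95% interval -0.09 to 0.21, limma, adjusted p = 0.503). The knockout difference turned to -0.02 with libraries shifted to a common median and to -0.04 without litters 2 and 4.

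**Figure D2:**
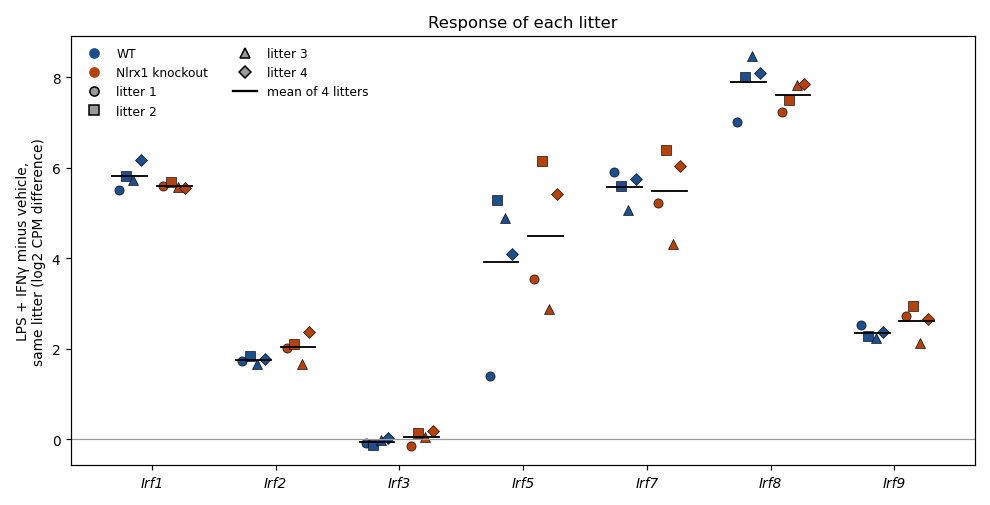
Response of each IRF (x axis), as LPS + IFNγ minus vehicle of the same litter in log2 CPM (y axis). Symbols are litters of WT (blue) and Nlrx1-/- (orange), and lines the means of 4. Irf8 lies between 7.01 and 8.48, Irf3 between -0.14 and 0.18, and Irf5 is the most scattered, from 1.40 to 6.15.

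Levels of different genes were compared in TPM, a share of all transcripts that corrects for transcript length. In WT vehicle, Irf3 was the most abundant IRF with 36 ± 2.62 TPM (SD, n = 4), followed by Irf2 (21.9 ± 2.13) and Irf9 (18.3 ± 2.02), whose libraries overlapped. Irf1 came next with 13 ± 2.03 TPM, then Irf7 with 2.05 and Irf8 with 1.04, which overlapped, and last Irf5 with 0.14. After LPS + IFNγ the WT order was Irf1 with 625 ± 19 TPM, Irf8 with 212 ± 18.8, and Irf7, Irf9 and Irf2 with 87.7, 80.5 and 63.8, neighbours that overlapped. Irf3 had moved to sixth of the 7 places, with 29.7 TPM, ahead of Irf5 with 1.68. TPM carries no TMM scaling (a correction of library size for composition), and the fall of Irf3 from 36 to 29.7 TPM stands beside a difference of -0.05 in log2 CPM. The summed IRF level went from 92.5 ± 3.98 to 1100 ± 77.4 TPM in WT. Within that sum the share of Irf3 dropped from 38.9% to 2.71%, while that of Irf1 rose from 14.1% to 56.8% and that of Irf8 from 1.13% to 19.2%.

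The knockout order in vehicle was alike, with Irf3 at 36.9, Irf2 at 18.9, Irf9 at 18.2, Irf1 at 13.6, Irf7 at 3.54, Irf8 at 1.14 and Irf5 at 0.0697 TPM, where Irf2 and Irf9 overlapped. After LPS + IFNγ it was Irf1 at 586, Irf8 at 203, Irf7 at 177, Irf9 at 98.9, Irf2 at 69.0, Irf3 at 34.0 and Irf5 at 1.44 TPM. Irf8, Irf7, Irf9 and Irf2 overlapped with their neighbours, and Irf7 ran from 54.8 to 310 TPM between litters. Irf7 made up 7.65%, 20.9%, 5.29% and 23.0% of the treated IRF sum in knockout litters 1 to 4, against 6.77%, 8.69%, 5.95% and 10.1% in WT. Its share was thus higher than in any WT litter in knockout litters 2 and 4 alone.

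**Figure D3:**
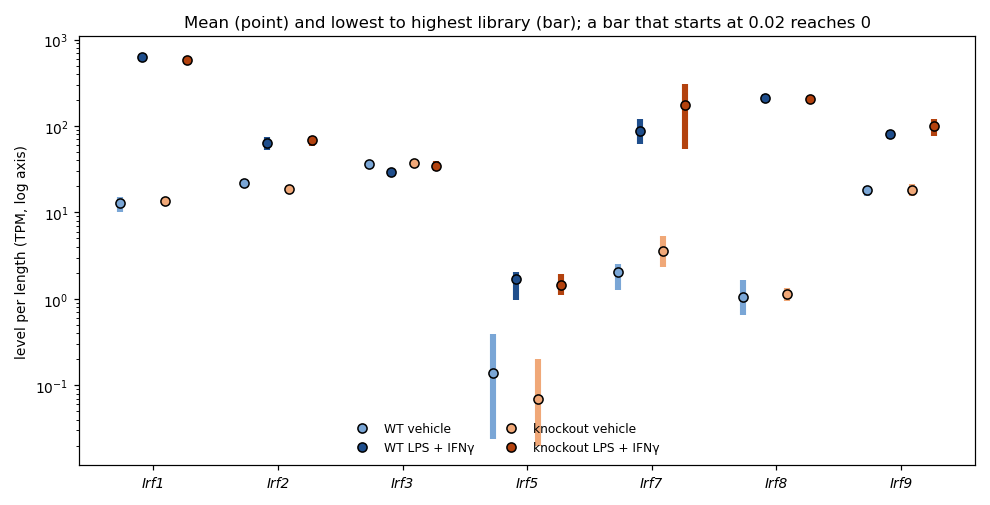
Level per length of each IRF in TPM (y axis, log scale) in the 4 conditions. Points are means of 4 libraries and bars run from the lowest to the highest library, with a bar that reaches 0 drawn from 0.02. Irf3 leads in vehicle with 36 TPM in WT, Irf1 after LPS + IFNγ with 625, and the widest treated bar is Irf7 in knockout, 54.8 to 310.

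Whether the response differed between genotypes was asked with the interaction, knockout response minus WT response. None of the 7 IRFs passed (limma), and 0.0% of all genes did. At an unadjusted p under 0.05, 2786 of 16707 genes and 1 IRF, Irf2, were found. The Irf2 response was 0.29 log2 units larger in knockout (95% interval 0.00 to 0.57, limma, adjusted p = 0.296), and that of Irf9 was 0.25 larger (-0.07 to 0.58, limma, adjusted p = 0.420). Irf1 differed by -0.21 (-0.46 to 0.04) and Irf8 by -0.29 (-0.86 to 0.29), with knockout lower. The interval of Irf7 was wider, -0.90 to 0.72 around -0.09, and that of Irf5 ran from -1.43 to 2.57 around 0.57. The litter responses overlapped between genotypes for all 7 IRFs, where 8.31% of all genes did not overlap.

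One litter decided this count. Without knockout litter 3, which had the smallest knockout response of Irf7 (4.32), Irf9 (2.12) and Irf2 (1.66), 2 IRFs passed: Irf2 with 0.41 (limma, adjusted p = 0.0471) and Irf9 with 0.42 (limma, adjusted p = 0.0435). The number of genes called then rose from 0 to 822. Without litters 2 and 4, again no IRF passed, and Irf2 came to 0.09, Irf9 to 0.06, Irf7 to -0.81 and Irf5 to -0.71. DESeq2 on counts called 337 genes and no IRF, and edgeR with its filter and limma-voom on counts called 0 genes.

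Between genotypes within a treatment, no IRF passed either. In vehicle 0.00599% of all genes passed, and no IRF had litters without overlap, against 9.45% of genes. Irf7 was 0.81 higher in knockout (95% interval -0.19 to 1.80, limma, adjusted p = 0.331), and 0.43 higher without knockout litters 2 and 4. Irf1 (0.14), Irf8 (0.25), Irf3 (0.10), Irf9 (0.05) and Irf2 (-0.15) had adjusted p between 0.346 and 0.887 (limma). Irf5 differed by -0.74 (-2.11 to 0.62), by 0.39 without these litters, and by -1.17 with edgeR and -2.02 with limma-voom on counts, none past the threshold.

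After LPS + IFNγ, 8.8% of all genes passed and none of the IRFs, and 13.3% of genes but no IRF had litters that did not overlap. The smallest p was that of Irf3, 0.21 higher in knockout (95% interval 0.02 to 0.40, limma, adjusted p = 0.132), and it came to 0.06 without litters 2 and 4. Irf9 was 0.30 higher (-0.01 to 0.61, limma, adjusted p = 0.182), 0.03 without litters 2 and 4, and 0.44 without litter 3, where it passed (limma, adjusted p = 0.0343). Irf7 was 0.72 higher (-0.28 to 1.72, limma, adjusted p = 0.320), -0.38 without litters 2 and 4 and 1.18 without litter 3 (limma, adjusted p = 0.0604). Irf2 was 0.14 higher and -0.06 without litters 2 and 4. Irf1 (-0.07, interval -0.25 to 0.11) and Irf8 (-0.03, interval -0.44 to 0.37) were closest to no difference, and Irf5 differed by -0.17 (-1.53 to 1.2). The 1471 genes called in this comparison fell to 3 without litters 2 and 4 and to 2 without either one, and rose to 3868 without litter 3. The fit behind them took both wells of a litter as separate libraries. With the 8 treated libraries alone 1 gene passed, and with litter as a block of estimated correlation 2034 did, with no IRF in either.

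**Figure D4:**
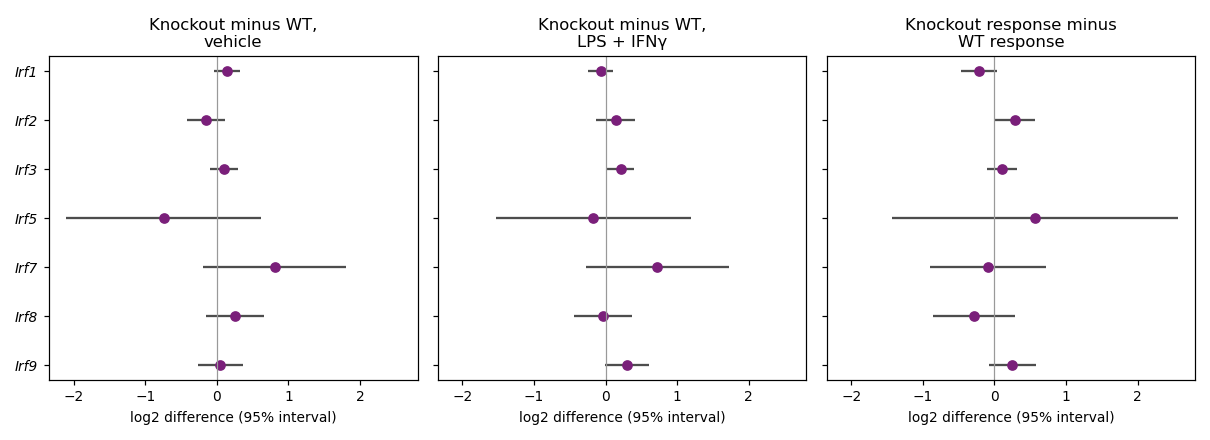
Genotype differences of each IRF on the log2 scale (x axis), in vehicle, in LPS + IFNγ and as the difference of responses. Points are limma estimates and lines 95% intervals. The interval of Irf3 after LPS + IFNγ starts at 0.02 and that of the Irf2 interaction at 0.00, and the other 19 include 0, the widest those of Irf5.

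The IRFs fell into groups by how they varied between litters. With the condition means taken out, Irf7 and Irf9 moved together (r = 0.94 over 16 libraries), and Irf2 and Irf3 moved with Irf7 (r = 0.72 and 0.69). Irf1 and Irf8 did not, with r = 0.01 and -0.04 against Irf7. Over the 12 libraries without knockout litters 2 and 4, r with Irf7 was 0.93 for Irf9, 0.80 for Irf2, -0.14 for Irf3, -0.32 for Irf1 and -0.43 for Irf8, so that of Irf3 rested on these litters. These values are descriptions, since libraries share litters. In the LPS + IFNγ libraries of knockout litters 2 and 4, Irf7 was at 8.01 and 8.21, Mbp at 0.69 and 0.73 and Gfap at 8.61 and 8.50 log2 CPM, whereas in litters 1 and 3 Irf7 was at 6.17 and 5.64, Mbp at 3.55 and 5.31 and Gfap at 9.33 and 9.98. All 9 oligodendrocyte lineage markers were in the table, with a summed level of 2720 to 3370 CPM in WT vehicle, 2230 to 2960 in WT LPS + IFNγ, 2840 to 3730 in knockout vehicle and 2130 to 2800 in knockout LPS + IFNγ, and Mog was at 0 reads in 6 libraries. The part of cell composition in the Irf7 and Irf9 levels was not tested.

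**Figure D5:**
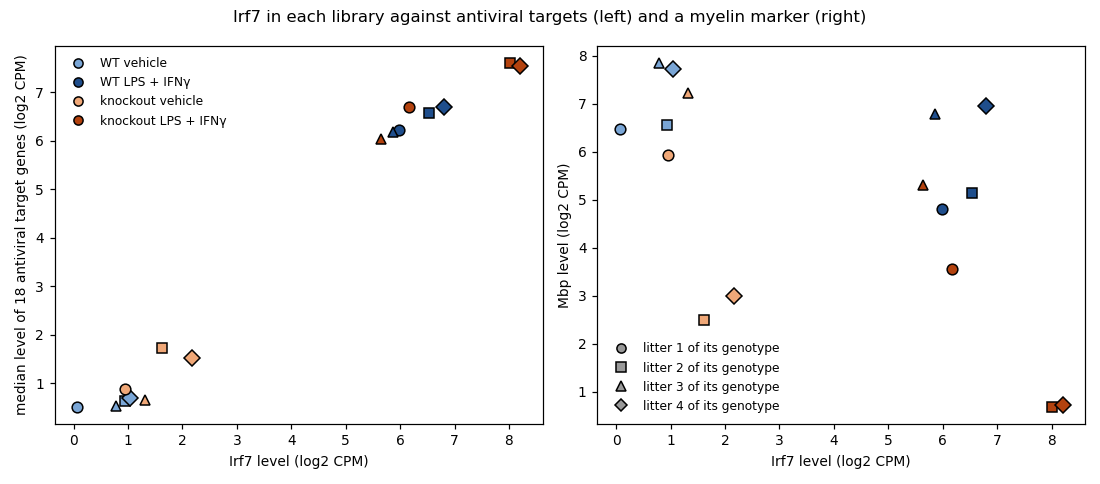
Irf7 level in each library (x axis, log2 CPM) against the median level of 18 antiviral target genes (left) and the level of the myelin gene Mbp (right), both in log2 CPM. Colours are conditions and shapes litters. Knockout litters 2 and 4 after LPS + IFNγ are the 2 libraries with the highest Irf7 (8.01 and 8.21), the highest target median (7.59 and 7.54) and the lowest Mbp (0.69 and 0.73).

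Genes around the IRFs were read from lists of their pathway. Over all genes, 24.9% rose and 21.9% fell in WT, and 26.6% rose and 25.5% fell in knockout. Among STATs and interferon receptor components, 8 of 12 rose and 1 fell in WT, and 9 rose and 0 fell in knockout, with medians of 0.45 and 0.76. Socs1, the feedback inhibitor of IFNγ signalling, rose by 6.21 in WT and 6.28 in knockout. The IFNγ receptor subunits moved little: Ifngr2 fell by 0.18 in WT (limma, adjusted p = 0.0443), with -0.16 in knockout, and Ifngr1 had -0.16 and -0.13, not passing. In the TLR4 pathway 8 of 15 genes rose and 2 fell in WT, and 10 rose and 2 fell in knockout. Tlr4 rose by 1.62 and 2.27 and the adaptor Myd88 by 2.53 and 2.80, while the adaptor Ticam2 fell by 0.72 in both. The LPS co-receptor Cd14, named after its value was seen, was 1.09 higher in knockout after LPS + IFNγ (limma, adjusted p = 0.0412), and 0.39 without knockout litters 2 and 4, not passing.

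Targets of the induced IRFs rose with them. All 17 measured antigen presentation and guanylate-binding genes of the IRF1 and IRF8 type rose in both genotypes, with medians of 6.15 and 6.37 log2 units. Gbp2 rose by 8.41 and 9.14, and Nos2, the inducible nitric oxide synthase, by 2.92 and 3.56. All 18 measured ISGF3 type targets rose too, with medians of 5.17 and 5.49, such as Oas1a with 8.74 and 9.67. After LPS + IFNγ, all 18 had a higher mean in knockout than in WT, with a median of 0.56 and 0 passing the test. Without knockout litters 2 and 4 the median was -0.19 and 2 of the 18 were higher. Their median level in single libraries was 7.59 and 7.54 log2 CPM in knockout litters 2 and 4, against 6.03 to 6.70 in the other 6 treated libraries. The cytokine genes Cxcl10, with 10.62 and 9.60, and Ccl5, with 9.45 and 8.96, rose in WT and knockout.

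Among the partners and myeloid factors of IRF8, 4 of the 5 measured rose in each genotype. Batf2, a partner of IRF8 and IRF1 in IFNγ-activated macrophages, rose by 9.47 and 9.67, and Batf3 by 3.16 and 2.55. Ikzf1 did not pass in either (0.35 and 1.33). Cebpa, a myeloid factor named after its value was seen, was 0.96 higher in knockout after LPS + IFNγ (limma, adjusted p = 0.0349), and 0.66 without knockout litters 2 and 4, not passing. Spi1, the main myeloid partner of IRF8, was below the filter.

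The genes whose levels followed each IRF most closely over the 16 libraries were found by Pearson's r among 12005 genes, and the treatment difference sets most of these values. Irf1 was followed by Psme1, Psmb9 and Apol6 (each 0.999) and Irf8 by H2-Eb1, Tap1 and Psmb9 (each 0.998), mostly antigen presentation genes. Irf7 was followed by Trim25 (0.998), Lgals9 (0.997) and Ifit1 (0.995), and Irf9 by Lgals3bp (0.998), Trim30a (0.997) and Parp12 (0.996). With condition means taken out over all 16 libraries, these 6 kept r between 0.87 and 0.97. The genes that followed Irf1 had 0.63, 0.25 and -0.04, and those that followed Irf8 had 0.64, 0.5 and 0.43. Irf2 was followed by Myd88 (0.996), Znfx1 and Ifi204 (each 0.994). For Irf5 the closest were Trpc1 (0.959), Uba7 and Prdx1 (each 0.956), and for Irf3, without a treatment difference, Rnf169 (0.896), Tmsb4x (0.860) and Fam78a (0.850). With condition means taken out, the followers of Irf2 kept 0.9, 0.84 and 0.84, those of Irf5 0.74 each, and those of Irf3 0.87, 0.87 and 0.78. High values were thus not particular to Irf7 and Irf9. The r of these followers was not computed without knockout litters 2 and 4.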

How the data were processed

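Poly-A RNA-seq libraries were made without strand information. The authors quantified transcripts with Salmon 1.7.0 on GRCm39 and deposited expected counts and TPM per transcript. The deposited CPM (counts scaled to a common library size, a normalized signal) and log2 CPM hold tximport gene counts, filtered for low values, over TMM-adjusted library sizes. Conditions come from the sample labels, and 0 value columns were left unmapped. A litter gave both wells, as in the study's design formula. Libraries of a litter deviated together (r 0.26 to 0.618 over 12600 genes, against a median of -0.117 for other litters of the genotype).

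The deposited log2 CPM of 16707 genes were fitted with limma 3.58.1 (R 4.3.3, trended eBayes), p-values being adjusted by Benjamini-Hochberg and called below 0.05. Responses and the interaction had a litter term, and genotypes were compared over 16 libraries in a fit of 4 condition means. Alternatives used edgeR 4.0.16, DESeq2 1.42.0 and limma-voom on expected counts summed per gene (106430 of 129698 transcripts paired with a symbol, rounded for DESeq2), log2(CPM + 1), a mean of at least 1 log2 CPM, libraries shifted to a common median, single litters left out, and knockout litters 2 and 4 left out, the last chosen after seeing the data. Fits were tested on simulated data. Intervals and 0 counts cover the spread or counting error only.

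The 7 members and all lists were chosen with earlier results of these data known. Named genes are the members, Nlrx1, in each list up to 2 tested genes with the largest and 2 with the lowest response in WT, and for each member the 3 genes with the highest r and no provisional symbol, among genes with a mean of at least 1 log2 CPM. Promoter sequences are from RefSeq (GRCm38.p6), gene positions from GENCODE M39 (GRCm39). Python 3.11.15, pandas 2.3.3, numpy 2.4.6, scipy 1.17.1 and matplotlib 3.10.9 made tables and figures. Single genes that the rule names but the text does not are not reported here.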

Additional observations from a re-analysis of the deposited data

Results flagged for a closer look

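Irf5 in WT cells with LPS + IFNγ had one library far from its group. Litter 1 was at 0.90 log2 CPM, against 1.86 to 2.01 in the other 3 litters, and the gap took 0.867 of the range of the group. The same litter had the highest Irf5 level in vehicle, -0.51 log2 CPM. Of 42 groups of 4 libraries checked this was the only one, and chance gives about 1 in 20. The cause was not tested.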

How the results depend on the processing

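All 226 alternative values for the responses of the 6 rising IRFs kept their direction and stayed past the threshold. The mean filter of 1 log2 CPM removed Irf5. With 1 litter left out, the number of IRFs called ran from 0 to 2 in the interaction and from 0 to 1 between genotypes after LPS + IFNγ. Over these fits the interaction ran from -0.39 to 0.30 for Irf7 and from -0.26 to 1.12 for Irf5, the vehicle difference of Irf9 from -0.04 to 0.13 and the LPS + IFNγ difference of Irf8 from -0.10 to 0.02. None of these signs was past the threshold. Signs also turned for the Irf7 interaction on log2(CPM + 1) (0.15) and limma-voom (0.20), the Irf5 interaction on log2(CPM + 1) (-0.01) and the Irf3 response in knockout with a common median (-0.02). Without knockout litters 2 and 4, they turned for the Irf3 response (-0.04), the Irf5 interaction (-0.71), the vehicle differences of Irf5 (0.39) and Irf9 (-0.03) and the LPS + IFNγ differences of Irf2 (-0.06) and Irf7 (-0.38). The cause was not tested.

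Without the litter block, limma called 0 genes and 0 IRFs in the interaction. With litter as a block of estimated correlation 0.364, it called 1 gene in vehicle and 2034 after LPS + IFNγ. The pairing changed no call of an IRF. Between genotypes after LPS + IFNγ, 1471 genes became 851 with edgeR (940 with RLE scaling, 640 unfiltered), 501 with limma-voom, 2427 with DESeq2, 1 with the 8 libraries alone or at 0.01, 796 without knockout litter 1 and 1 without WT litter 2, 3 or 4. In vehicle, 1 gene became 630 with DESeq2, 1618 without knockout litter 3, 494 without WT litter 1, and 0 to 2 otherwise. In the interaction, 0 genes became 1 with unfiltered edgeR. Irf5 rests on 0 to 104 traced reads a library, so its differences are the least precise.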

Other observations

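Irf4 had 0 reads in all 16 libraries. Type I interferon transcripts were rare too, with 0 to 24 reads of Ifnb1, 0 to 6 of Ifna4 and 0 of Ifna2, although all 18 measured ISGF3 type targets rose. A count of 0 in one library allows up to 3 reads, and counts of RNA at 24 h do not show earlier expression.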
